A study of Homo sapiens with 6 samples.

Results

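Insulin-like growth factors (IGFs) act on cells through the receptor IGF1R, a tyrosine kinase that passes the signal to the docking proteins IRS1 and IRS2 and on to PI3-kinase and AKT. Secreted binding proteins, IGFBP1 to IGFBP6, hold IGFs with high affinity and can withhold them from the receptor or deliver them to it. IGFBP7 is a related secreted protein with low affinity for IGFs. In the mammary gland of rodents, IGFBP5 is known to rise when the gland regresses after weaning.

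These 10 genes (IGFBP1 to IGFBP7, IGF1R, IRS1 and IRS2) were followed on Affymetrix gene-level arrays. They were found by gene symbol in the authors' workbook, 10 of 20184 named genes, and had 11 of the 28026 probe sets tested, IGF1R having a pair. The family was chosen by the measured change of IGFBP5, the largest fall between the groups on these arrays, so the values of IGFBP5 are given as a description, without a test. The calls of its relatives come from the same comparison, and their number is likewise no support for a response of the family.

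The cells, MDA-468.shp53, appear by name to be MDA-MB-468 breast cancer cells, an established human line with mutant p53, with a construct for a hairpin RNA against p53. They grew in 3-dimensional culture for 8 days, either with doxycycline (+DOX), which turns on hairpins of this inducible kind, or without it (-DOX). Both groups carried the construct, and 3 separate experiments each gave 1 array of either group. No arrays of doxycycline on cells lacking the hairpin were used, so the hairpin and the drug cannot be told apart. The line is a single one, and on total RNA fewer cells with a transcript and less of it per cell cannot be told apart either.

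Values are log2 signals from Robust Multichip Average (RMA) processing, and a change is +DOX minus -DOX. Array medians lay between 7.45 and 7.56. Markers of epithelium (EPCAM, KRT8, KRT18, KRT19, CDH1 and EGFR) were among the bright probe sets, with means up to 13.03 in +DOX cells and 13.22 in -DOX cells and all far above the array medians. KRT8 was the epithelial marker that fell (1 of 6), by 0.63. Of markers of other cells, none of 6 for fibroblasts and none of 4 for endothelium passed. Over the array, 12.8% passed at a limma adjusted p under 0.05. At an unadjusted limma p under 0.05 there were 3 of 6 for epithelium, 0 for fibroblasts, 0 for endothelium and 2 of 5 for leukocytes (CD14, and CD3E with a change of -0.21). The share of the array at this unadjusted level was not counted, so these counts cannot be set against it. Of 5 for leukocytes, CD14 fell, with means of 10.58 in +DOX cells and 11.23 in -DOX cells, whereas the defining marker PTPRC was at 4.15 in +DOX cells and 4.23 in -DOX cells. The part of these markers in the results below was not tested.

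The bases before the start of IGFBP5 are shown because this gene had the largest fall. The start sites of IGFBP3 and IGFBP4, binding proteins that did not pass the threshold, and of the receptor IGF1R are shown beside it for comparison. Sequences are from RefSeq on GRCh38.p14, read 5′ to 3′ on the strand of the gene and ending at the base before the start. Capitals mark a box near the start, written TATAAA or one of its variants TATATA and TTTAAA. The IGFBP5 window has 250 bases, on the minus strand of chr2:216695550-216695799. The others have 60 bases, on the minus strand of chr7:45921273-45921332 for IGFBP3, and on the plus strand of chr17:40443390-40443449 for IGFBP4 and of chr15:98648479-98648538 for IGF1R.
IGFBP5: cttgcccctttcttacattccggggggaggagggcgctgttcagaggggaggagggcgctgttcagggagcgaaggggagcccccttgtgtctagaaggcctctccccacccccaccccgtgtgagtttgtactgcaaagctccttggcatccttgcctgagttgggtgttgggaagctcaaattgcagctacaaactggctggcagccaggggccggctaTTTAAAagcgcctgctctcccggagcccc
IGFBP3: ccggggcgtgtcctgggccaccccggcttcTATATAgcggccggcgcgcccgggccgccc
IGFBP4: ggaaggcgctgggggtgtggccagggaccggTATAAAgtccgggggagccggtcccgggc
IGF1R: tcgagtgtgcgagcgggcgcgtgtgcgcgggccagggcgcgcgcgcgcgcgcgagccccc

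Windows of 250 bases were found for 8 of the 10 genes, with 10 start sites, 3 of them for IGFBP2. IGFBP1 and IGFBP7 had no entry. TTTAAA lay at bases -29 to -24 from the start of IGFBP5, TATAAA at the same bases of IGFBP4, and TATATA at bases -30 to -25 of IGFBP3. None of the 5 remaining genes held any of these letters in its window. Searched on both strands, TTTAAA is held by 11.3% of 35116 RefSeq windows of that length, TATAAA by 10.7% and TATATA by 3.73%.

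GGGCGG, the GC box, was in 8 of the 10 windows, all but that of IGFBP5 and 1 of IGFBP2, and in 42.6% of all windows. IRS1 had 4 matches and IRS2 had 5. GCCNNNGGC, a motif bound by AP-2 factors, was found for IGFBP5 (bases -44 to -36), IGFBP6, IRS1 and IGF1R, and in 19.8% of all windows. CAAAACA, the insulin response element bound by FOXO factors, was found for IRS2 alone, against 4.30% of all windows. The sterol regulatory element TCACNCCAC (0.883% of all windows) and the AP-1 motif TGANTCA (6.57%) were in none of these windows. The p53 response motif (a single copy of its repeated unit) was in 1 of the IGFBP2 windows and in 5.57% of all windows. The motifs were picked after windows of the family had been read, and these matches describe the letters and not the binding of any factor.

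IGFBP5 (probe set 8058857, 36 probes, chr2:217245073-217268516 on the minus strand of NCBI build 36) was far lower with doxycycline. Its log2 values were 6.79, 6.65 and 6.62 in +DOX cells of experiments 1, 2 and 3, against 10.34, 10.53 and 10.42 in -DOX cells. The groups lay far apart and each was tight, with ranges of 0.17 over +DOX arrays and 0.20 over -DOX arrays. The change was -3.54, -3.88 and -3.79 in the 3 experiments, and -3.74 (SE 0.096) over all, a 13.3-fold difference. The next largest fall on the array was -3.01, of a probe set with no gene name. The +DOX values were below the median of the array. The files hold no detection call, so how far these values stand above background is unknown, and the fold may understate the change for that reason.

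IGFBP2 (probe set 8048205, chr2:217206372-217237409 on the plus strand) is the neighbour of IGFBP5, with 7663 bases between the probe sets. Its values were 8.50, 8.51 and 8.42 in +DOX cells and 8.43, 9.13 and 9.11 in -DOX cells of experiments 1, 2 and 3. The +DOX arrays were alike, whereas the -DOX array of experiment 1 lay with them and the other -DOX arrays lay above. Hence the change was 0.07 in experiment 1, against -0.62 in experiment 2 and -0.69 in experiment 3. Over all it was -0.41 (SE 0.15) and did not pass (limma adjusted p = 0.128). Without experiment 1, the one of opposite sign, it was -0.65 and passed (limma adjusted p = 0.0140, from 2 experiments). Without experiment 2 it was -0.31 and without experiment 3 it was -0.28. Neither of these passed (limma adjusted p = 0.404 and 0.448), nor did the change without pairing by experiment (0.243).

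IGFBP3, the main carrier of IGFs in serum, varied the opposite way. Its values were 9.34, 9.61 and 9.55 in +DOX cells and 10.01, 9.42 and 9.37 in -DOX cells of experiments 1, 2 and 3. The -DOX array of experiment 1 was the highest of all, and the groups overlapped. The change was -0.67 in experiment 1, against 0.19 and 0.18 in experiments 2 and 3, and -0.10 (SE 0.17, 95% interval -0.49 to 0.29) over all, which did not pass (limma adjusted p = 0.836). The turn of sign between experiments was not tested, since each experiment held 1 array a group.

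IGFBP4, a binding protein that mostly holds IGFs back and is cut by the protease PAPPA, had 10.52, 10.48 and 10.50 in +DOX cells and 10.44, 10.61 and 10.71 in -DOX cells. The groups overlapped, and the change of -0.09 (SE 0.092, 95% interval -0.30 to 0.13) did not pass. IGFBP1, whose expression in liver is under the control of insulin, had 8.52, 8.39 and 8.49 in +DOX cells and 8.29, 8.40 and 8.66 in -DOX cells. The -DOX values enclosed the +DOX values, and the change was 0.02 (SE 0.10, 95% interval -0.22 to 0.25). IGFBP6, which prefers IGF2, had 8.52, 8.53 and 8.31 in +DOX cells and 8.50, 8.45 and 8.95 in -DOX cells. The -DOX array of experiment 3 stood above the rest, so the change was -0.63 there, against 0.02 and 0.07 in experiments 1 and 2. Over all it was -0.18 (SE 0.14, 95% interval -0.51 to 0.15). Neither IGFBP1 nor IGFBP6 passed (limma adjusted p = 0.971 and 0.555).

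IGFBP7 (probe set 8100541, chr4:57591696-57671308 on the minus strand) fell. Its values were 7.62, 7.52 and 7.42 in +DOX cells, against 8.18, 7.77 and 8.05 in -DOX cells. All +DOX values lay below all -DOX values, with changes of -0.56, -0.25 and -0.62. Over all the change was -0.48 (SE 0.10, limma adjusted p = 0.0207), a 1.39-fold difference. The call was lost without experiment 1 or without experiment 3 (limma adjusted p = 0.0874 and 0.115). It was also lost under the authors' paired t-test (adjusted p of that test 0.32).

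**Figure D1:**
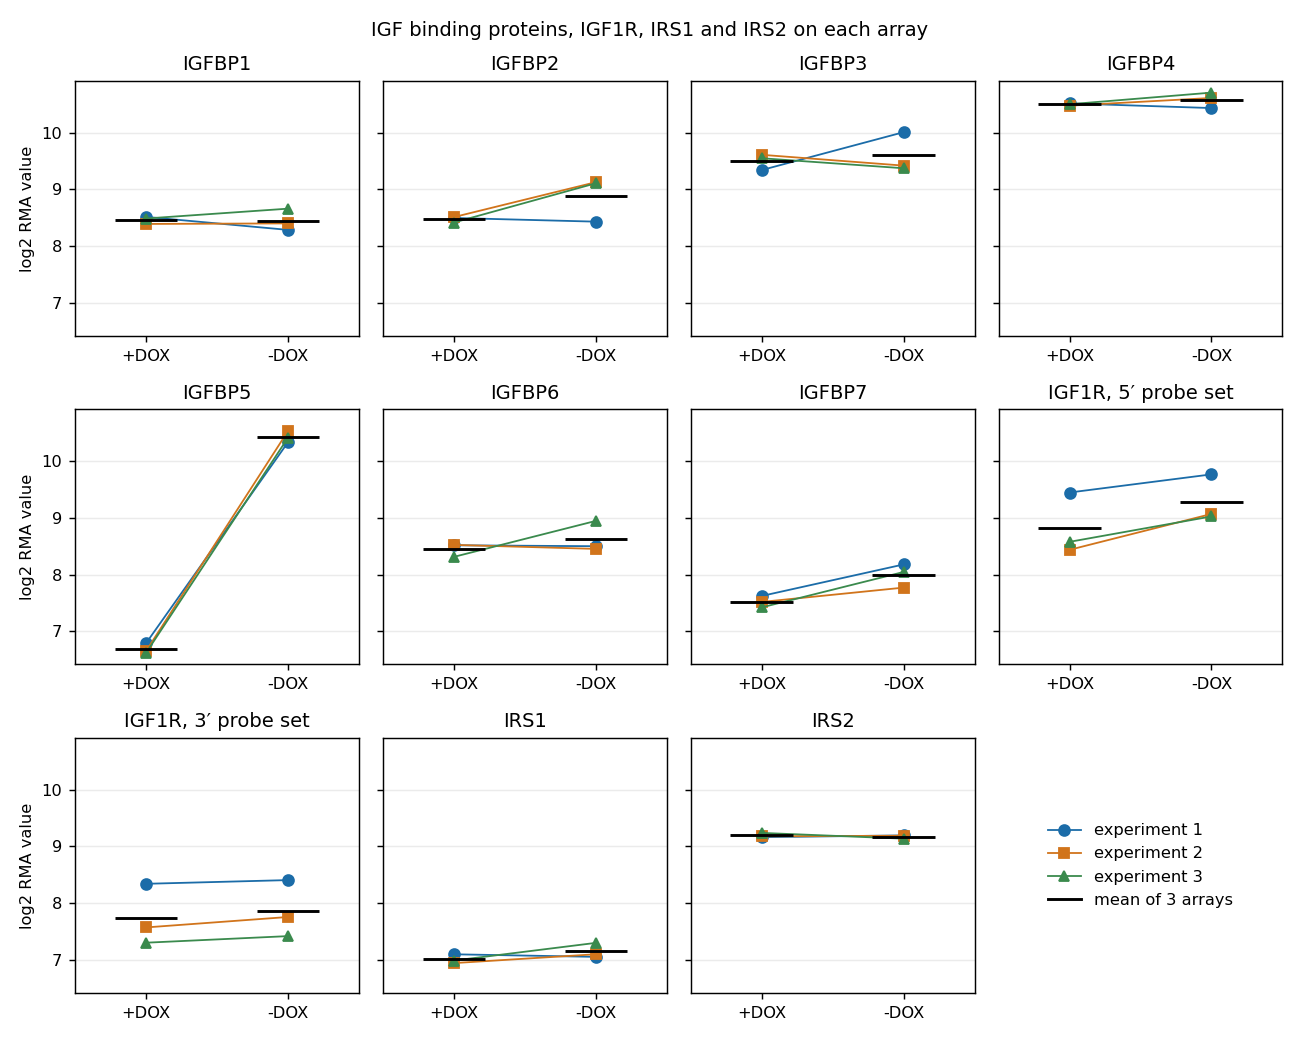
Log2 RMA values (vertical axis, the same in all panels) of the 11 probe sets in +DOX and -DOX cells. Points joined by a line are the arrays of 1 experiment, and black bars are means of 3 arrays. IGFBP5 averaged 6.69 in +DOX cells and 10.43 in -DOX cells. In the IGFBP2 and IGFBP3 panels the -DOX array of experiment 1 stands apart, low for IGFBP2 and high for IGFBP3.

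The receptor gene IGF1R had a pair of probe sets, both on the plus strand of chromosome 15 and 3000 bases apart. The 5′ probe set (7986359, 30 probes, chr15:97010288-97319034) had 9.45, 8.44 and 8.58 in +DOX cells, against 9.77, 9.07 and 9.03 in -DOX cells. Experiment 1 was the highest in both groups, so the groups overlapped, while +DOX was below -DOX in every experiment. The changes were -0.32, -0.63 and -0.45, and -0.47 (SE 0.093, limma adjusted p = 0.0177) over all, a 1.38-fold fall. The call was lost without pairing by experiment (limma adjusted p = 0.471), without experiment 2 (0.107) and without experiment 3 (0.0832). The authors' paired t-test did not give it either (adjusted p of that test 0.288).

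The 3′ probe set of IGF1R (7986383, 22 probes, chr15:97322035-97325282) had 8.34, 7.57 and 7.30 in +DOX cells and 8.41, 7.76 and 7.42 in -DOX cells. Here too experiment 1 was highest and each +DOX array was the lower of its pair. The changes were small, -0.07, -0.18 and -0.12, and their mean of -0.12 (SE 0.082, 95% interval -0.31 to 0.07) did not pass (limma adjusted p = 0.471). The probe sets of this gene disagreed on the call and in size, and the difference between them was not tested.

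The docking proteins downstream of the receptor did not pass. IRS1 (probe set 8059470, also on chromosome 2) had 7.10, 6.94 and 6.99 in +DOX cells and 7.05, 7.10 and 7.30 in -DOX cells. The groups overlapped and the change was -0.14 (SE 0.097, 95% interval -0.37 to 0.09, limma adjusted p = 0.481). IRS2 (probe set 7972745, chromosome 13) was the steadiest member. Its 6 values spanned 0.10, from 9.14 in a -DOX array to 9.24 in a +DOX array, and its change was 0.02 (SE 0.083, 95% interval -0.18 to 0.21, limma adjusted p = 0.951).

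**Figure D2:**
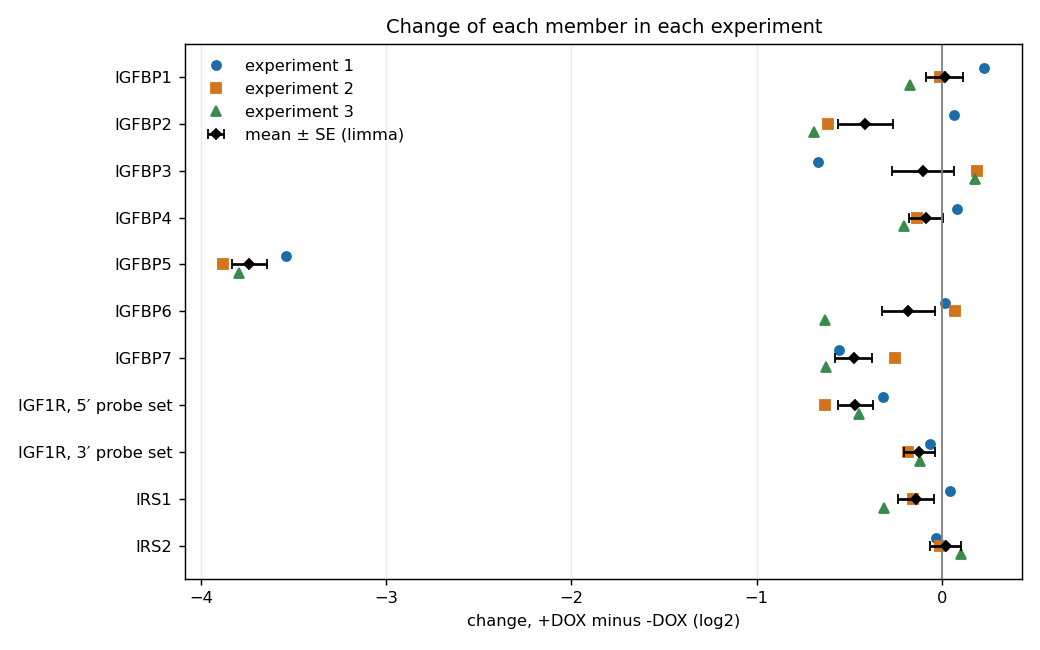
Change of each probe set, +DOX minus -DOX on the log2 scale (horizontal axis), in experiments 1, 2 and 3 (coloured points) and over all with the moderated SE (black). IGFBP5 lies between -3.54 and -3.88, and every other point lies between -0.69 and 0.23.

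Of the 10 probe sets besides IGFBP5, 2 fell (IGFBP7 and the 5′ probe set of IGF1R), 0 rose and 8 did not pass the threshold of a limma adjusted p under 0.05. The share past it was 12.8% over all probe sets, 6.63% as falls and 6.14% as rises. The median change of all 11 probe sets was -0.14, against -0.01 over all 28026. The groups did not overlap for 2 of 11 (IGFBP5 and IGFBP7), against 24.9% of the array. The sign was the same in all 3 experiments for 4 of 11 (IGFBP5, IGFBP7 and both probe sets of IGF1R), against 42.6% of the array.

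The sign of the change differed between experiments for some members. In 5 of 11 probe sets (IGFBP1, IGFBP2, IGFBP3, IGFBP4 and IRS1) the change of experiment 1 had the opposite sign to those of experiments 2 and 3. That is 45.5%, against 17.9% of the array. In experiment 1 the change was only 0.07 for IGFBP2, 0.08 for IGFBP4 and 0.05 for IRS1, each below the SE of its overall change. It was 0.23 for IGFBP1 and -0.67 for IGFBP3. Signs of changes so near 0 are uncertain, and all probe sets share the same 6 arrays. In 2 probe sets (IGFBP6 and IRS2) experiment 3 was the odd one, against 22% of the array, and in 0 experiment 2, against 17.4%. For 8 of 11 probe sets the SD over 3 arrays was smaller in +DOX than in -DOX cells, against 58.1% of the array. Both probe sets of IGF1R and IRS2 went the other way. The SD was 0.05 in +DOX and 0.40 in -DOX cells for IGFBP2, 0.14 and 0.35 for IGFBP3, and 0.02 and 0.14 for IGFBP4. For IGFBP5 it was nearly equal, 0.09 and 0.10. These counts by experiment and by SD were added after the values were seen, and no difference in sign or spread was tested.

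The genes with values most like those of IGFBP5 were sought among probe sets with 1 gene. The measure was the root mean square difference over the 6 arrays, after each gene's own mean was taken away. RNU5D-1, a U5 RNA gene, was nearest (0.461), then CP, the copper carrier ceruloplasmin (0.510), EFEMP1, an extracellular matrix protein (0.531), H2BC14, a histone H2B gene (0.564), and SCGB2A2, the secretoglobin mammaglobin (0.565). Their falls lay between -2.71 and -2.93, and they are near IGFBP5 chiefly by the size of their falls. That all fell less than IGFBP5 follows from its choice as the largest fall. RNU5D-1 and H2BC14 belong to families of near-identical genes, which makes their single values uncertain. CP was close in evenness too, at -2.88, -2.53 and -2.88 in experiments 1, 2 and 3, whereas H2BC14 had -1.80, -3.52 and -3.11 and missed the threshold with a trended, robust variance (limma adjusted p = 0.0686).

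Changes of genes around IGFBP2 and IGFBP5 went both ways. That none fell as far as IGFBP5 follows from its choice as the largest fall. Of 6 genes measured within 500 kb of the pair, 1 fell, 1 rose and 4 did not pass, with a median change of -0.06, where 12.8% of the array was called. TNP1, the nearest on the upstream side of IGFBP5, changed by -0.12 (SE 0.084), and SMARCAL1, a DNA helicase-like enzyme, by 0.23 (SE 0.10), and neither passed (limma adjusted p = 0.483 and 0.221). DKFZp434H1419, a transcript named as in the file, had 7.92, 7.21 and 7.28 in +DOX cells, against 8.74, 8.32 and 8.46 in -DOX cells. It fell by 1.04 (SE 0.099, limma adjusted p = 0.00127), with groups that did not overlap.

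RPL37A, a ribosomal protein gene between that transcript and IGFBP2, had 9.72, 9.84 and 9.76 in +DOX cells, against 9.49, 9.49 and 9.22 in -DOX cells. It rose by 0.37 (SE 0.093, limma adjusted p = 0.0397). The call was lost without pairing (0.0587) and with any experiment left out (0.0564 to 0.171), and processed copies of ribosomal protein genes elsewhere in the genome make its value uncertain. Near IGFBP1 and IGFBP3, which lie 18576 bases apart on chromosome 7, ADCY1 was the only other gene measured within 500 kb (0.07, SE 0.088, not past the threshold).

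**Figure D3:**
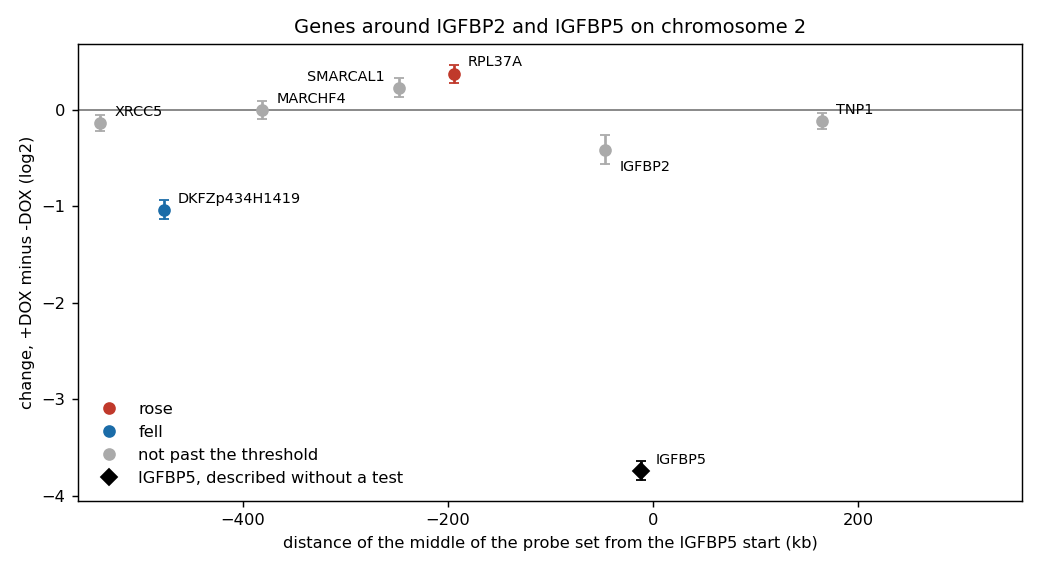
Change (+DOX minus -DOX, log2, with the limma SE) of genes within 500 kb of IGFBP2 and IGFBP5, against distance in kb from the IGFBP5 start to the middle of each probe set. IGFBP5, chosen for its fall, is at -3.74, IGFBP2 is at -0.41, and the 6 other genes lie between -1.04 and 0.37.

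The wider pathway was described with 7 lists of 63 genes, of which 62 had a probe set of their own name (INS had none). In all, 6 rose, 5 fell and 51 did not pass, or 17.7% called, against 12.8% of the array. All 62 are named and stand by their brightest probe set, while the array share also covers unnamed and dimmer probe sets. With named probe sets tested alone, 14 pathway genes were called, against 4138 of 20956 probe sets. The median change of the 62 genes was 0.06, against -0.01 over the array. The lists overlap with no member of the family and were drawn up with earlier results of these arrays known. The shares of single lists below, set against the same array share, carry these limits too.

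Neither ligand of the receptor passed. IGF1 averaged 5.54 in +DOX and 5.47 in -DOX cells, and the probe set named IGF2 averaged 6.03 in +DOX and 6.01 in -DOX cells. At an unadjusted limma p under 0.05 there were 0 of 2, a level at which the share of the array was not counted. That IGF2 probe set lies on the plus strand, while the one that lists the IGF2 mRNA, named INS-IGF2 in the file, lies on the minus strand, so the first may not measure IGF2. INS-IGF2, which covers both genes, averaged 7.47 in +DOX and 7.46 in -DOX cells, a change of 0.01 (SE 0.082, limma adjusted p = 0.985). Among other receptors IGF2R, which clears IGF2 from the cell surface, rose. Its values were 10.77, 10.47 and 10.47 in +DOX cells, against 10.31, 10.13 and 9.96 in -DOX cells, with no overlap. The change was 0.44 (SE 0.085, limma adjusted p = 0.0160), but it did not pass without pairing (0.0720), without experiment 1 (0.0628) or without experiment 3 (0.0852). The insulin receptor INSR was 0.33 higher (SE 0.089) and missed the threshold (limma adjusted p = 0.0523).

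Partners and proteases of the binding proteins held the largest changes of these lists, with 2 rises and 1 fall among 10. That is 30% called, against 12.8% of the array. PAPPA, a secreted protease, cuts IGFBP4 and IGFBP5 and so frees IGFs, and the stanniocalcins STC1 and STC2 inhibit it. STC1 had 8.78, 8.98 and 9.01 in +DOX cells, against 9.92, 10.12 and 10.25 in -DOX cells. All +DOX values were lower, and STC1 fell by 1.17 (SE 0.083, limma adjusted p = 0.000464), a 2.25-fold difference. STC2 went the other way, with 10.46, 10.07 and 9.92 in +DOX cells, against 9.55, 8.94 and 8.70 in -DOX cells. Its groups did not overlap either, and it rose by 1.09 (SE 0.094, limma adjusted p = 0.000930), a 2.13-fold difference.

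PAPPA itself had 6.37, 6.66 and 6.70 in +DOX cells, against 6.14, 6.24 and 6.28 in -DOX cells, all below the array median. It rose by 0.36 (SE 0.086, limma adjusted p = 0.0354), a call lost without pairing (0.0856) and with any experiment left out (0.0577 to 0.179). The related protease PAPPA2 (0.04, SE 0.090), HTRA1 (-0.03, SE 0.088), which also cuts binding proteins, and IGFALS (0.02, SE 0.11), which joins IGFBP3 and IGF in a serum complex, did not pass.

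Among 12 adaptors and receptor inhibitors, GRB10 alone passed (8.33%, against 12.8% of the array). GRB10 binds IGF1R and the insulin receptor and dampens their signal. Its values were 10.43, 10.27 and 10.35 in +DOX cells, against 9.79, 9.53 and 9.49 in -DOX cells. The groups did not overlap, and GRB10 rose by 0.75 (SE 0.087, limma adjusted p = 0.00249), a 1.68-fold difference. The others lay between -0.15 and 0.23, among them GRB14 (0.23), the adaptor SHC1 (0.13) and the phosphatase PTPN1 (-0.15).

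Of 21 genes of the PI3-kinase, AKT and mTOR branch 1 rose, 1 fell and 19 did not pass, with a median change of 0.19. That is 9.52% called, against 12.8% of the array. PIK3R1 encodes the regulatory subunit of PI3-kinase that docks on IRS proteins. It had 9.38, 9.61 and 9.62 in +DOX cells, against 10.19, 10.22 and 10.38 in -DOX cells, and fell by 0.72 (SE 0.086, limma adjusted p = 0.00268) without overlap. DDIT4, an inhibitor of mTOR complex 1, had 11.60, 11.68 and 11.62 in +DOX cells, against 11.04, 10.71 and 10.59 in -DOX cells. It rose by 0.85 (SE 0.11, limma adjusted p = 0.00373), also without overlap. The kinases AKT1 (-0.11), AKT2 (-0.10) and MTOR (0.19) did not pass.

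FOXO factors are held out of the nucleus by AKT. Among them and their targets 1 of 11 rose and 3 fell, or 36.4% called, against 12.8% of the array. The median change of this list was -0.03. SESN3, a target that restrains mTOR complex 1, had 10.11, 9.70 and 9.94 in +DOX cells, against 9.37, 9.19 and 9.12 in -DOX cells. It rose by 0.69 (SE 0.095, limma adjusted p = 0.00455), with no overlap of the groups. CITED2, a transcriptional coregulator, fell by 0.63 (SE 0.089), PIK3IP1, an inhibitor of PI3-kinase, by 0.62 (SE 0.099), and the cyclin CCNG2 by 0.44 (SE 0.097), each lower on all +DOX arrays (limma adjusted p = 0.00487, 0.00781 and 0.0246).

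Of these falls, that of PIK3IP1 was lost without experiment 3 (limma adjusted p = 0.0501). That of CCNG2 was lost without pairing (0.0571) and without experiment 2 or 3 (0.107 and 0.126). FOXO1 (0.25, SE 0.084), FOXO3 (0.01, SE 0.082, from its probe set on chromosome 6) and FOXO4 (-0.22, SE 0.12) did not pass. Of the 3 proteins that bind IGF2 mRNA, IGF2BP1, IGF2BP2 and IGF2BP3, none passed, and 0 had an unadjusted limma p under 0.05. The share of the array at that unadjusted level was not counted. The largest change among these 3 was that of IGF2BP2 (0.17, SE 0.084).

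**Figure D4:**
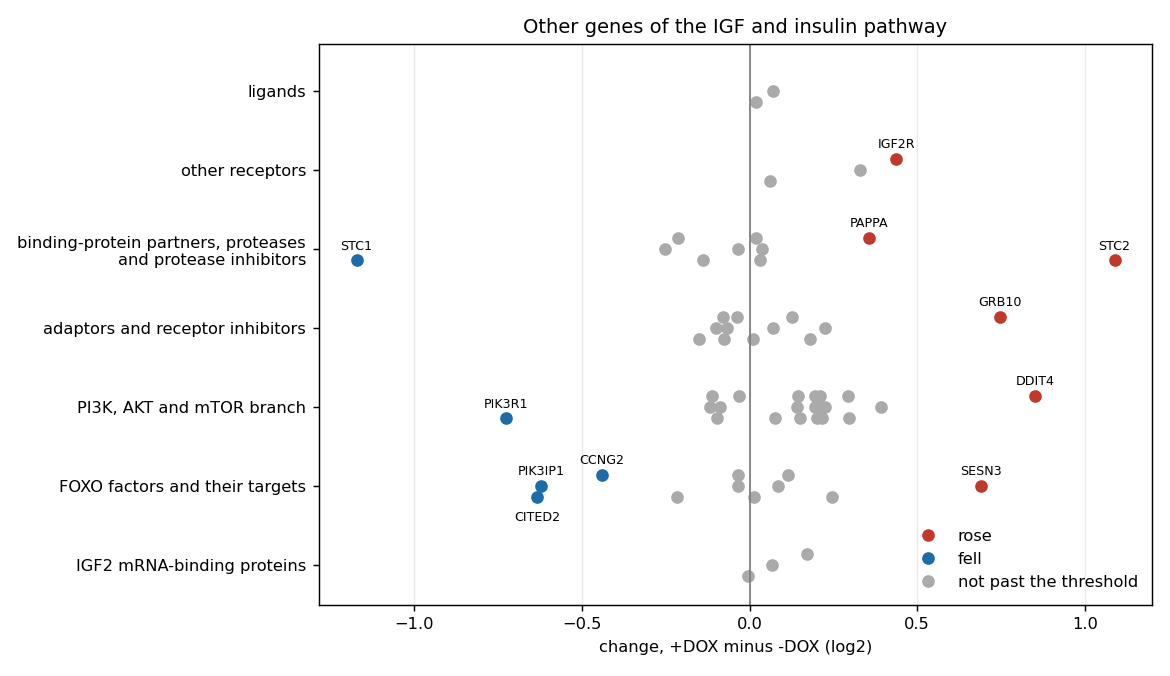
Change (+DOX minus -DOX, log2, horizontal axis) of 62 genes of the IGF and insulin pathway outside the family, by list. Genes past the limma adjusted threshold are coloured and named. STC1 (-1.17) and STC2 (1.09) are at the ends, and both ligands lie near 0.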

How the data were processed

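The deposited log2 values come from RMA under R 2.11.1, per the submitters' processing notes. The authors' workbook repeats them (to within 5e-09) and adds symbols and NCBI build 36 coordinates. Of 33297 probe sets, 4428 were marked as controls and 976 were empty, 133 of them both, which left 28026. Names came from the file's accessions and symbols through RefSeq (GRCh38.p14), and 313 probe sets on another chromosome than their gene were left unnamed, a rule added after the first results had been seen. The probe set with the highest mean stood for a gene outside the family.

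All 28026 were fitted in limma 3.58.1 under R 4.3.3, with the experiment as a term, Benjamini-Hochberg adjustment over all of them and a threshold of 0.05. The procedure was tested on simulated data with 50 changes of each size. It called 72% of changes of 0.5 log2 and 100% of those of 1, 2 and 3, so changes of 0.5 or less can go uncalled. Only these probe sets were changed in the simulation, with normal noise, whereas 12.8% were called in the data. The 72% may therefore not hold for these arrays. Pairing follows the design text, whose authors paired their own test by experiment; deviations of paired arrays correlated at 0.482, 0.165 and 0.099 in experiments 1, 2 and 3. Arrays have no depth, and their number limits the precision.

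Members, lists and alternatives were chosen with earlier results of these data known. Named were all members, up to 4 called genes per list with the smallest p and one sign in all experiments (otherwise the 1 with the smallest p), called neighbours, and the 5 genes most like IGFBP5. Others are named as examples, chosen after their values were seen. Results for the hairpin's target are not reported here.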

Additional observations from a re-analysis of the deposited data

How the results depend on the processing

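Changes of the 10 family probe sets besides IGFBP5 were recomputed under 10 other settings, 100 values in all. Direction and side of the threshold were kept in 87, a call was lost in 7 and gained in 1, and the sign turned in 5, all of uncalled members. With 1 experiment left out, IGFBP1 ranged from -0.0917 (without experiment 1) to 0.1095, IGFBP3 from -0.2459 to 0.1835 (without experiment 1), IGFBP6 from -0.3089 to 0.0436 (without experiment 3) and IRS2 from -0.0213 (without experiment 3) to 0.0453. Under quantile normalization IRS2 was -0.0003. The change of IGFBP5, described without a test, lay between -3.84 and -3.67. Without the replicate block, that is without pairing, 1 relative of IGFBP5 was called in place of 2, 8 pathway genes in place of 11, 1 neighbour in place of 2 and 2409 probe sets in place of 3580. Leaving out 1 experiment gave 0 to 2 relatives, 7 to 10 pathway genes, 1 neighbour each time and 1355 to 2853 probe sets. Without experiment 3 these counts were 0, 7, 1 and 1355, and without experiment 2 the relatives were 1 and the probe sets 1909. The methods' t-test, paired by experiment, called 0 of each after adjustment. The lost calls listed above beside genes outside the family leave this test out. At its unadjusted 1% level it found 0 relatives, 5 pathway genes, 0 neighbours and 1165 probe sets, and at an unadjusted p under 0.05 it found 1, 14, 1 and 4449. The causes were not tested, though fewer arrays enter when an experiment is left out. Equal array medians, quantile normalization, the trended and robust variance, leaving out the dimmest 25% and testing named probe sets alone kept each of these counts within 1.5 times. Dropping names from probe sets on another chromosome was decided after seeing the data. With such names kept, 12 pathway genes were called, 7 as rises and 5 as falls, and the added one was FOXO3, through a probe set on chromosome 17 (0.31, limma adjusted p = 0.0489). With 3 arrays a group, small changes have wide intervals, and probe sets near the background may have understated changes.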
